A study of Mus musculus with 8 samples.

Results

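Macrophages and other myeloid cells were followed through 43 genes in 8 mouse neuroblastoma-type tumours. The genes were chosen by name, and all 43 had a probe set annotated to that symbol only, out of 22180 genes read in the same way. They fall into 8 subgroups: the complement C1q chains, lysosomal proteins, scavenger receptors with lipid handling, Fc receptors with their signalling partners, neutrophil genes, lineage control, surface and pan-leukocyte genes, and innate sensing with activation. The tumours were primary and subcutaneous, and form 1 group (n = 8). They grew from mouse neural crest cells (NCCs), the embryonic cells that give rise to sympathetic neurons, transduced with N-Myc, whose gene is amplified in aggressive human neuroblastomas. The cells, labelled N-Myc; p53mixed, combined p53+/- and p53-/- NCCs, so every tumour shares N-Myc and reduced or absent p53. About 10000 cells were injected 48 hours after infection, and tumours were taken after about 50 days. Hosts were nude mice, which lack a thymus but keep macrophages, neutrophils and NK cells, or immunocompetent C57Bl/6 mice. The labels do not pair tumours with hosts. They also do not state separate animals or cultures, so p-values measure only the spread between these samples.

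Macrophages arise from monocytes or embryonic precursors under the control of PU.1, the transcription factor encoded by Spi1, and survive on signals through the receptor Csf1r. They engulf dying cells and debris through scavenger and Fc receptors, tag them with C1q, and degrade them in lysosomes with cathepsins. Neutrophils are short-lived granulocytes that share part of this equipment and carry their own granule and calcium-binding proteins. In solid tumours macrophages are usually the main myeloid cells, and in neuroblastoma they have been studied as support cells of tumour growth.

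RNA was measured on 1 array per tumour and given as log2 expression per probe set, so a difference of 1 is a doubling. Array medians lay between 5.63 and 5.75. Each array's background was set by 1435 probe sets of olfactory, vomeronasal and taste receptors, genes silent in most tissues, at their 95th percentile, and lay between 5.45 and 5.66. The background was lowest in tumour 3 (5.45, with 13567 genes above it) and was 5.63 in tumour 1 (13164 genes above it). Probe sets differ in brightness, so each gene is compared with the background and with itself in other tumours, not with another gene's level. In a bulk tumour, fewer cells of a type and less RNA per cell cannot be told apart.

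Most macrophage genes were above background in these tumours, and most neutrophil genes were not. Of the 43 genes, 35 were called above background (limma, adjusted p under 0.05), against 57.3% of all genes tested. All members passed in 4 subgroups: the 3 C1q chains, the 7 lysosomal genes, the 6 Fc receptor and signalling genes and the 7 surface and pan-leukocyte genes. In the others, 4 of 5 scavenger and lipid genes, 3 of 4 lineage genes, 3 of 5 sensing and activation genes and 2 of 6 neutrophil genes passed. The 8 genes that did not pass were Cd163, Cd14, Tlr4, Csf2rb, S100a8, S100a9, Retnlg and Camp. The count depends on where the background is set: it was 21 of 43 with the 99th percentile of the receptor probe sets. The share of all genes under that setting is not given, so this count cannot be set against it. Genes that lost the call then included Fcgr1, Fcgr3, Mrc1, Arg1, Spi1 and Ptprc.

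Tumour 3 held the highest level, and tumour 1 the lowest, of most detected members. Of the 35 detected genes, 23 had their highest level in tumour 3, where 13.7% of all detected genes did, and 19 had their lowest in tumour 1, where 14.4% did. None was lowest in tumour 3, where 8.69% of all detected genes were, and none was highest in tumour 1, where 7.87% were. Averaged after centring each gene on its own mean, the mean of the 35 genes was 0.51 for tumour 3, 0.23 for tumour 6, 0.14 for tumour 4 and -0.40 for tumour 1. The other 4 tumours lay between -0.18 and -0.04. The median SD over the tumours was 0.38 for these genes, beside 0.23 for all detected genes. Genes of other cell types shared parts of this pattern. The detected fibroblast genes were also highest in tumour 3 (0.82 relative to their means), as was Fabp4, the only adipocyte gene detected (1.14). Skeletal muscle genes were high in tumours 6, 8 and 3 (1.03, 1.01 and 0.99). Endothelial genes had their minimum in tumour 1 (-0.66) and their maximum in tumour 4 (0.68). Sympathetic tumour cell genes were lowest in tumour 6 (-0.78). The part of these cells in the macrophage values was not tested. Col1a1 was the only gene of theirs fitted as a covariate, and it had r = 0.20 with Csf1r.

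**Figure D1:**
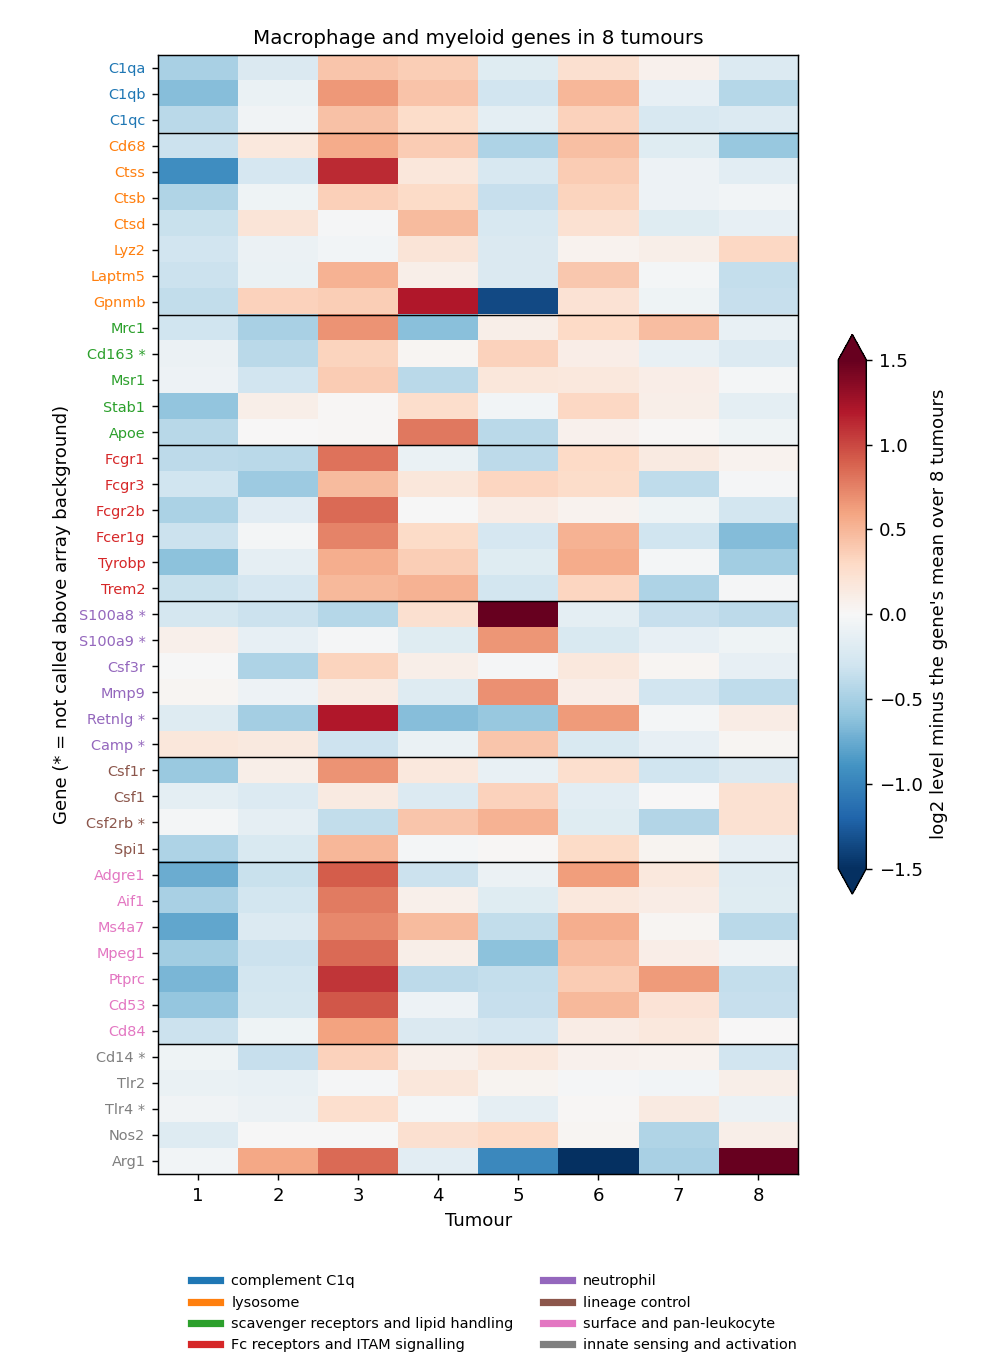
Each row is a gene, coloured by subgroup, and each column a tumour; the colour is the log2 level minus the gene's mean over the 8 tumours, and the scale ends are shown for values beyond it. An asterisk marks the 8 genes not called above background. Tumour 3 is red for most rows, while S100a8 and S100a9 are highest in tumour 5, Gpnmb and Apoe in tumour 4 and Arg1 in tumour 8.

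To ask which genes moved with the macrophage lineage, each gene was regressed on Csf1r, the receptor for the macrophage growth factors, whose deletion removes most macrophages. Csf1r read 6.81, 7.45, 8.04, 7.52, 7.25, 7.62, 7.07 and 7.15 in tumours 1 to 8. It was highest in tumour 3 and lowest in tumour 1, a 2.35-fold range. No gene of 22179 passed limma's slope test after adjustment over all genes (0%, lowest adjusted p = 0.12), so none of the 42 members is called. At an unadjusted p under 0.05, 20 of the 42 members had an upward slope, beside 4.74% of all genes tested and 6.25% of detected genes, and 0 had a downward slope, beside 2.62%. The median slope of the members was 0.64 log2 units per log2 unit of Csf1r, beside -0.01 over all genes. The upward count was 13 without tumour 3, where 4.50% of all genes had one, and 11 of these 13 were among the 20. For the other gene lists below, the shares of all genes to set beside their counts are 57.3% detected and 4.74% with an upward slope.

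**Figure D2:**
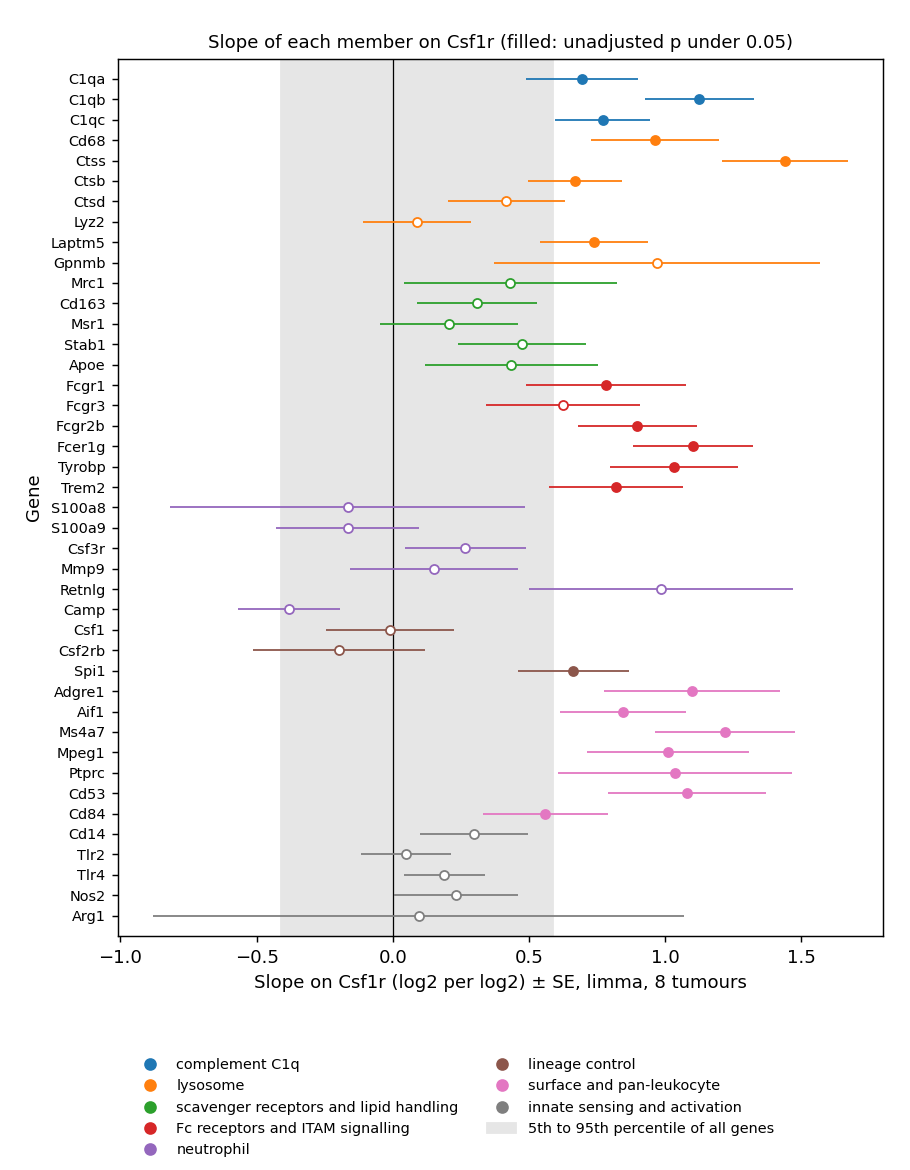
Points are limma slopes on Csf1r over 8 tumours with their standard errors, 1 per member, filled where the unadjusted p is under 0.05. The grey band runs from the 5th to the 95th percentile of all genes (-0.41 to 0.59). All C1q and all surface and pan-leukocyte genes are filled, and no scavenger, neutrophil or sensing gene is; no slope passes after adjustment over all genes.

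The 3 C1q chains varied together. C1q is the recognition unit of the classical complement pathway, built from the products of C1qa, C1qb and C1qc, and tissue macrophages are its main source. C1qb read 9.08, 9.61, 10.37, 10.14, 9.43, 10.21, 9.59 and 9.29 in tumours 1 to 8. C1qa read 8.42, 8.69, 9.33, 9.28, 8.73, 9.15, 8.97 and 8.71, and C1qc read 7.14, 7.49, 7.99, 7.82, 7.40, 7.89, 7.31 and 7.34. For each chain tumours 3, 4 and 6 were the highest and tumour 1 was the lowest. The share of all detected genes with these same tumours on top is not given. The chains moved together: C1qb with C1qc had r = 0.98 (exact permutation p = 0.000347, adjusted p = 0.00521) and rho = 0.93 (exact permutation p = 0.00223, adjusted p = 0.0335), with r = 0.95 without tumours 3 and 6. C1qa with C1qb had r = 0.95 (exact permutation p = 0.000843, adjusted p = 0.00632) and rho = 0.83 (p = 0.0154, adjusted p = 0.0769), with r = 0.90 without tumours 1 and 3. C1qa with C1qc had r = 0.90 (exact permutation p = 0.0034, adjusted p = 0.0127) and rho = 0.76 (p = 0.0368, adjusted p = 0.11), with r = 0.79 without tumours 1 and 3. Without tumour 1 the adjusted p was 0.0605 for C1qa with C1qb and 0.15 for C1qa with C1qc. All correlations were two-sided exact permutation tests over the 40320 pairings, adjusted over the 15 relations computed. On Csf1r the slopes were 1.12 ± 0.20 (SE) for C1qb (limma, unadjusted p = 0.000212, adjusted p = 0.451), 0.77 ± 0.17 for C1qc and 0.69 ± 0.21 for C1qa. Without tumour 3 they were 1.31 ± 0.30, 0.90 ± 0.26 and 0.78 ± 0.31.

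The 250 bases before the start of 4 member genes are shown because C1qb, C1qc and Ctss had upward slopes at unadjusted p under 0.05 (limma) and S100a8 did not. They are RefSeq sequences of GRCm38.p6, written 5′ to 3′ on the gene's strand. The windows are chr4:136886201-136886450 (minus strand) for C1qb, chr4:136892915-136893164 (minus strand) for C1qc, chr3:95526536-95526785 (plus strand) for Ctss and chr3:90668821-90669070 (plus strand) for S100a8. Capitals mark GAGGAA, the core of PU.1-type ETS sites, or its complement TTCCTC, and TATAAA, the letters of the TATA box, or its complement TTTATA. Matches were marked at any position on either strand. The TTTATA of Ctss begins 233 bases before the start, on the other strand.
C1qb: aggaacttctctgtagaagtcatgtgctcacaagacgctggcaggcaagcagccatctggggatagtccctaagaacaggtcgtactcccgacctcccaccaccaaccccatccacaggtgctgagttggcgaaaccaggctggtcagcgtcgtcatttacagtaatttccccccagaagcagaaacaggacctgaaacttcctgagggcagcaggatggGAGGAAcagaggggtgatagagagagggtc
C1qc: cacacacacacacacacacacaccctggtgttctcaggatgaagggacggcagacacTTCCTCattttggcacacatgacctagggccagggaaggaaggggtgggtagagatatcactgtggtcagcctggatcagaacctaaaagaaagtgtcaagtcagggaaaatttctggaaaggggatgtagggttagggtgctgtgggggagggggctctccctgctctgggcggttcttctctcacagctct
Ctss: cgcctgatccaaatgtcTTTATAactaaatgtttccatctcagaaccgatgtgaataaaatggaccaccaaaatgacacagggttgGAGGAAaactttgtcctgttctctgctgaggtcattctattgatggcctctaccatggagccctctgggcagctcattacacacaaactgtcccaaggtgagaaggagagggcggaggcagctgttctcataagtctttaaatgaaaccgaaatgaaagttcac
S100a8: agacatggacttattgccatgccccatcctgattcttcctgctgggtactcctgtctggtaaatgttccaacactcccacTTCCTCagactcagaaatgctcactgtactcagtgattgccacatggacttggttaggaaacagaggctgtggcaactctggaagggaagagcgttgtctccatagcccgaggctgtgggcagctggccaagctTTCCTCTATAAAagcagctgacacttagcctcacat
The GAGGAA letters begin 30 bases before the start of C1qb, 193 before that of C1qc and 164 before that of Ctss. In S100a8 they occur 170 and 36 bases before the start, the nearer one touching a TATA box that begins at 30. RefSeq windows were found for 30 of the 43 members (35 windows, some genes having several starts). GAGGAA on either strand was in 18 of the 35 windows (51.4%), beside 23.3% of the 32851 windows of all genes. By subgroup it was in 2 of 2 C1q windows, 3 of 6 lysosomal, 4 of 6 scavenger and lipid, 4 of 6 Fc receptor, 3 of 8 surface and 2 of 5 neutrophil windows, and in 0 of 1 lineage control and 0 of 1 sensing windows. The AP-1 motif TGANTCA was in 4 of 35 windows (11.4%, 6.75% of all), TATAAA in 5 (14.3%, 12.4% of all), and the E-box TCACGTG in 1 (2.86%, 3.13% of all), that of Ctsd. These matches are letters in a window and show no binding.

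Of the 7 lysosomal genes, 4 had an upward slope on Csf1r at unadjusted p under 0.05. Ctss, the cathepsin that trims the invariant chain in antigen-presenting cells, had the largest slope of all members, 1.44 ± 0.23 (SE; limma, unadjusted p = 9.18e-05, adjusted p = 0.407). It read 7.41, 8.09, 9.46, 8.51, 8.10, 8.72, 8.27 and 8.19 in tumours 1 to 8, a 4.14-fold range from tumour 1 to tumour 3. Cd68, a lysosomal membrane glycoprotein used as a pan-macrophage marker, ran from 9.41 in tumour 8 to 10.53 in tumour 3 (slope 0.96 ± 0.24). Ctsb, a cysteine cathepsin, ran from 10.40 to 11.20 (slope 0.67 ± 0.17), and Laptm5, a lysosomal membrane protein of leukocytes, from 6.38 to 7.26 (slope 0.74 ± 0.20). Each of these 4 had an unadjusted p under 0.05 with all tumours and also without tumour 3.

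The remaining 3 lysosomal genes were highest in other tumours than tumour 3. Lyz2, lysozyme of myeloid cells, whose probe set may also read its close copy Lyz1, ran from 10.39 to 10.98, highest in tumour 8 and not in tumour 3, with a slope of 0.09 ± 0.20 (limma, unadjusted p = 0.659). Ctsd, an aspartic cathepsin, was highest in tumour 4 at 11.28 (slope 0.42 ± 0.21, and 0.91 ± 0.24 without tumour 3, limma, unadjusted p = 0.0787 and 0.00394). Gpnmb, a glycoprotein of lipid-laden macrophages that pigment and glial cells also make, read 8.81, 9.53, 9.55, 10.38, 7.82, 9.40, 9.11 and 8.83. Its highest level in tumour 4 was 5.92-fold its lowest, in tumour 5. Among other lysosomal genes 16 of 16 measured were above background and 8 had an upward slope at unadjusted p under 0.05, the largest being Ctsh (1.32 ± 0.28), Ctsc (1.15 ± 0.29) and Ctsz (0.83 ± 0.18).

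Fc receptors and the adaptors that signal for them were all detected. Fcer1g and Tyrobp (DAP12) carry the ITAM motif through which several receptors without a signalling tail activate the cell. Fcer1g read 9.41, 9.71, 10.48, 10.02, 9.49, 10.26, 9.44 and 9.09, and Tyrobp 8.11, 8.60, 9.28, 9.10, 8.55, 9.29, 8.70 and 8.21. For both genes tumours 3, 4 and 6 were again the highest. They moved together, with r = 0.92 (exact permutation p = 0.00149, adjusted p = 0.00744) and rho = 0.88 (exact permutation p = 0.00724, adjusted p = 0.0543), and r = 0.84 without tumours 3 and 6. Their slopes on Csf1r were 1.10 ± 0.22 (SE; limma, adjusted p = 0.451) and 1.03 ± 0.24 (adjusted p = 0.505).

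The receptors themselves were less alike. Trem2, a lipid-sensing receptor that signals through Tyrobp, was highest in tumours 4 (8.54), 3 (8.50) and 6 (8.34) and lowest in tumour 7 (7.55). Its relation to Tyrobp missed the threshold (r = 0.76, exact permutation p = 0.0378, adjusted p = 0.081; rho = 0.60, p = 0.132, adjusted p = 0.248; r = 0.56 without tumours 3 and 6). Fcgr1, the high-affinity IgG receptor, read 6.37, 6.36, 7.58, 6.66, 6.37, 7.06, 6.90 and 6.82, and Fcgr2b, the inhibitory IgG receptor, 7.35, 7.66, 8.68, 7.82, 7.94, 7.88, 7.76 and 7.55. Both stood out in tumour 3, and without it their slopes had an unadjusted p of 0.434 and 0.108 (limma). Fcgr3, an activating IgG receptor, ran from 6.06 in tumour 2 to 7.09 in tumour 3. Its relation to its partner Fcer1g was r = 0.57 (exact permutation p = 0.14, adjusted p = 0.19; rho = 0.55, p = 0.171, adjusted p = 0.285) and 0.09 without tumours 3 and 6. Fcgr2b and Fcgr3 share similar extracellular sequence, so their probe sets may read each other's RNA in part. Of other genes of this pathway 3 of 10 measured were detected, and 3 had an upward slope at unadjusted p under 0.05, of which only Inpp5d, a phosphatase that limits Fc signalling, was detected (0.66 ± 0.19).

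Surface and pan-leukocyte genes had the widest range of subgroup means with all tumours, 1.43, which was 0.99 without tumour 3, below the 1.15 of the sensing and activation subgroup. That subgroup has 3 detected genes, and the extremes of its mean follow Arg1 alone. The mean of the surface genes was 0.84 for tumour 3, 0.40 for tumour 6, 0.20 for tumour 7 and -0.59 for tumour 1. Their median gene SD was 0.51. Adgre1, the adhesion G protein-coupled receptor widely used to mark mouse macrophages, read 6.39, 6.80, 8.04, 6.82, 7.05, 7.77, 7.29 and 6.94. Ptprc (CD45), the phosphatase of all nucleated blood cells, read 5.77, 6.18, 7.53, 6.07, 6.10, 6.84, 7.10 and 6.10, a 3.39-fold range. Cd53, a leukocyte tetraspanin, ran from 6.76 to 8.27, and Cd84, a SLAM family receptor, from 6.05 to 6.98. Tumours 3, 6 and 7 were the highest for Adgre1, Ptprc, Cd53 and Cd84 alike. Ms4a7, a membrane protein of macrophages, instead had tumours 3 (9.38), 6 (9.21) and 4 (9.14) on top. Aif1 (Iba1), a calcium-binding actin bundler, and Mpeg1, a pore-forming protein of phagosomes, ran from 6.21 to 7.48 and from 7.49 to 8.96.

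All 7 genes of this subgroup had an upward slope on Csf1r at unadjusted p under 0.05, from 0.56 ± 0.23 (SE) for Cd84 to 1.22 ± 0.26 for Ms4a7 (limma, adjusted p from 0.451 to 0.671). Without tumour 3 only Ms4a7 kept an unadjusted p under 0.05 (1.403 ± 0.384, limma, unadjusted p = 0.00491). The slope of Ptprc was then 0.45 ± 0.59 and that of Adgre1 0.85 ± 0.48.

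Tumours 4 and 7 show where the subgroups parted. In tumour 4 the C1q, lysosomal and Fc receptor subgroups stood at 0.35, 0.40 and 0.21 relative to their means, and the surface and pan-leukocyte subgroup at -0.05. In tumour 7 the same 4 stood at -0.10, -0.07, -0.18 and 0.20. Trem2 was 8.54 in tumour 4 and 7.55 in tumour 7, while Ptprc was 6.07 and 7.10, and Mrc1 was 6.09 and 7.18. Not every gene followed its subgroup: the surface gene Ms4a7 was 9.14 and 8.69, and Fcgr1 was 6.66 and 6.90. The detected scavenger and lipid genes were split. Mrc1 and Msr1 were lower in tumour 4, while Stab1 (7.58 and 7.41) and Apoe (8.16 and 7.39) were higher there. Genes of other cell types also differed between tumours 4 and 7. Relative to their means, detected fibroblast genes stood at -0.63 and 0.69, and endothelial genes at 0.68 and -0.42. Schwann cell and glial genes stood at 2.36 and -0.40. The part of these cells in the parting of the subgroups was not tested. Tumours 4 and 7 are single tumours, so the difference between them has no replicate and was not tested.

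**Figure D3:**
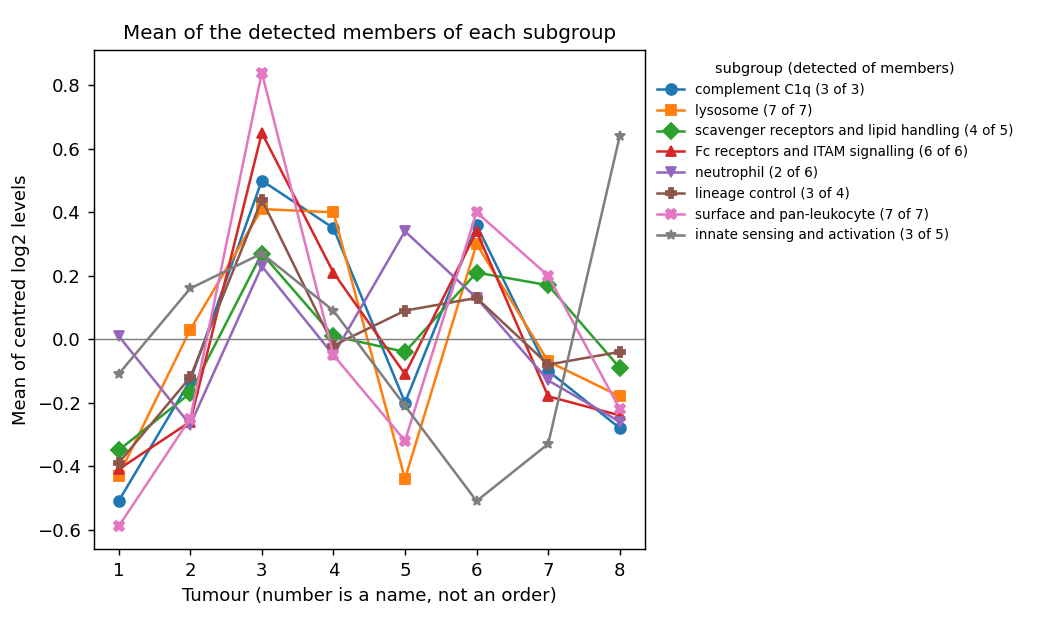
Points are means, per tumour, of the detected members of a subgroup after centring each gene on its mean over the 8 tumours (log2 units); lines only join points of one subgroup, since tumour numbers have no order. Most subgroups are highest in tumour 3. The neutrophil mean, of Csf3r and Mmp9 only, is highest in tumour 5 (0.34), where Mmp9 peaks (6.96) and Csf3r (5.95) is near its mean (5.96). The sensing and activation mean, of Tlr2, Nos2 and Arg1, is highest in tumour 8 (0.64) and lowest in tumour 6 (-0.51). It follows Arg1 (9.10 and 5.83), while Tlr2 (6.37 and 6.26) and Nos2 (5.88 and 5.81) differ little between these tumours.

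Of the 5 scavenger and lipid genes, 4 were detected, and their highest levels fell in 3 different tumours. Mrc1, the mannose receptor (CD206) of resident and alternatively activated macrophages, read 6.42, 6.23, 7.39, 6.09, 6.81, 7.02, 7.18 and 6.61. It was high in tumours 3, 7 and 6 and lowest in tumour 4, with a slope of 0.43 ± 0.39 (SE; limma, unadjusted p = 0.296). Msr1, the class A scavenger receptor for modified lipoproteins, ran from 6.80 in tumour 4 to 7.58 in tumour 3 (slope 0.21 ± 0.25). Stab1, a clearance receptor of macrophages and sinusoidal endothelium, ran from 6.73 in tumour 1 to 7.63 in tumour 6 (slope 0.47 ± 0.24, limma, unadjusted p = 0.0711). Without tumour 3 its slope was 0.95 ± 0.29 (limma, unadjusted p = 0.00886). Cd163, the haemoglobin scavenger receptor, was below background in all 8 tumours (4.71 ± 0.26, SD, n = 8). The relations of Mrc1 missed the threshold, both to Cd163 (r = 0.54, exact permutation p = 0.166, adjusted p = 0.207; rho = 0.43, p = 0.299, adjusted p = 0.446; r = 0.54 without tumours 3 and 4) and to Stab1 (r = 0.15, exact permutation p = 0.75, adjusted p = 0.803; rho = 0.07, p = 0.882, adjusted p = 0.935; r = 0.51 without tumours 3 and 4). Of other scavenger and phagocytic receptors 7 of 12 were detected, and 3 had an upward slope at unadjusted p under 0.05: Siglec1 (0.87 ± 0.20), Scarb1 (0.62 ± 0.23) and Mertk (0.59 ± 0.21). Timd4, a phosphatidylserine receptor of resident macrophages that was not detected, had a downward one (-1.03 ± 0.31).

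Apoe, the lipid carrier of macrophages and glia, read 6.95, 7.37, 7.39, 8.16, 6.96, 7.43, 7.39 and 7.31. Tumour 4 stood alone at the top, and the others lay within 6.95 to 7.43. Apoe and Trem2, its receptor, missed the threshold (r = 0.67, exact permutation p = 0.0472, adjusted p = 0.0886; rho = 0.71, p = 0.0576, adjusted p = 0.144; r = 0.40 without tumours 3 and 4). Apoe, Gpnmb, Ctsd, Trem2 and Tlr2 were the members highest in tumour 4. Tumour 4 also had the highest mean level of a list of Schwann cell and glial genes, with Erbb3 at 9.50, Sox10 at 8.32 and Fabp7 at 12.03. Of that list 4 of 6 measured genes were detected, S100b and Ngfr were not, and its mean level ran from 5.72 to 8.34 over the tumours. In tumour 6 Erbb3, Sox10 and Fabp7 read 8.58, 8.05 and 11.51, with Apoe at 7.43 and Gpnmb at 9.40. The list mean was 7.74 and S100b 5.03 there, against 8.34 and 6.20 in tumour 4. The part of glial cells in the tumour 4 values was not tested, and bulk values do not show which cells, tumour cells included, made these RNAs.

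**Figure D4:**
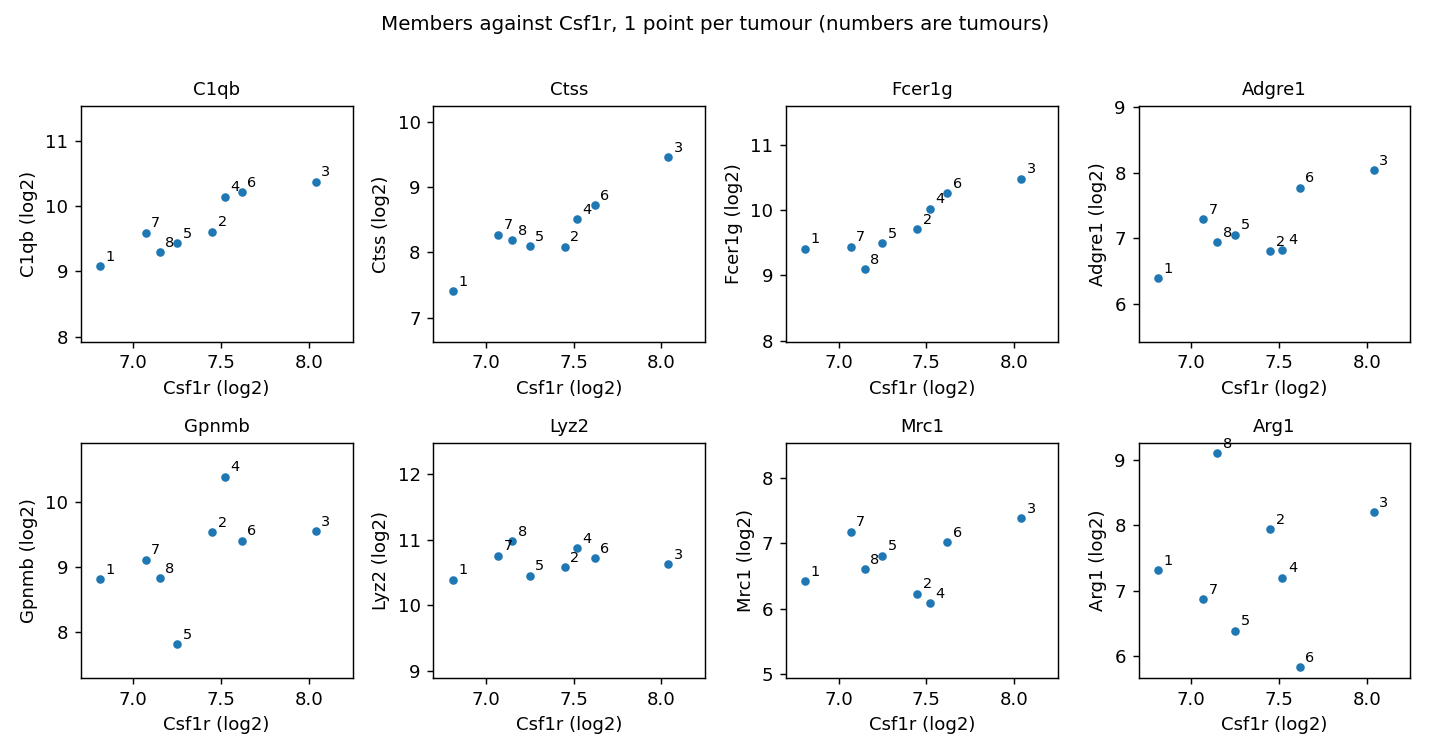
Each panel sets the log2 level of a member against that of Csf1r, 1 numbered point per tumour, with the same span on every vertical axis. C1qb, Ctss, Fcer1g and Adgre1 slope upward by 1.10 to 1.44 log2 units per unit of Csf1r, Lyz2 by 0.09, and Arg1 runs from 5.83 in tumour 6 to 9.10 in tumour 8 with a slope of 0.10 ± 0.97 (SE).

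Among the genes that control the lineage, Spi1 read 6.09, 6.33, 7.06, 6.53, 6.58, 6.85, 6.60 and 6.42. It moved with Csf1r (r = 0.83, exact permutation p = 0.0121, adjusted p = 0.0363; rho = 0.64, p = 0.0962, adjusted p = 0.206), but r was 0.34 without tumours 1 and 3, so the relation rests on them. The adjusted p was 0.16 without tumour 1, 0.171 without tumour 3, 0.0938 without tumour 6 and 0.0591 without tumour 8. Csf1, the growth factor that binds Csf1r, read 6.58, 6.52, 6.86, 6.53, 7.08, 6.57, 6.74 and 6.96, highest in tumours 5 and 8. Its relation to its receptor was near 0 (r = -0.02, exact permutation p = 0.967, adjusted p = 0.967; rho = -0.21, p = 0.619, adjusted p = 0.714; r = 0.38 without tumours 5 and 8). Csf2rb, the signalling chain shared by the GM-CSF, IL-3 and IL-5 receptors, was near background (5.77 ± 0.35, SD, n = 8; limma, adjusted p = 0.0905) and highest in tumours 5 and 4. Mice carry a near-identical second copy of this gene, so its value is uncertain.

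Of the 5 sensing and activation genes, Tlr2, Nos2 and Arg1 were called above background and Cd14 and Tlr4 were not. Cd14, which hands endotoxin to Tlr4, was at 4.67 ± 0.23 (SD, n = 8) and above background in 0 of 8 tumours, and Tlr4, the endotoxin receptor, at 5.22 ± 0.13, above it in 1. Their relation was r = 0.62 (exact permutation p = 0.0952, adjusted p = 0.159; rho = 0.40, p = 0.327, adjusted p = 0.446; r = 0.60 without tumours 2 and 8), and passed only without tumour 5 (r = 0.84, exact permutation adjusted p = 0.0387). Tlr2, the lipopeptide receptor, lay within 6.17 to 6.45, above background in 8 of 8 tumours (limma, adjusted p = 1.89e-07). Nos2, the inducible nitric oxide synthase of classically activated macrophages, was at 5.79 ± 0.24 and passed narrowly (limma, adjusted p = 0.0314). Leaving out tumour 3, 4, 5, 6 or 8 ended that call (limma, adjusted p from 0.0611 to 0.0813).

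Arg1, the arginase of alternatively activated macrophages, had the widest range of all members. It read 7.32, 7.94, 8.20, 7.20, 6.39, 5.83, 6.87 and 9.10 in tumours 1 to 8, a 9.62-fold range (7.36 ± 1.04, SD, n = 8). Tumour 8, the highest, was among the lower tumours for Csf1r, C1qb and Cd68, and tumour 6, the lowest, was among the highest for them. Its slope on Csf1r was 0.10 ± 0.97 (SE; limma, unadjusted p = 0.925). Mrc1 and Arg1, which are often read together as markers of alternative activation, had their highest levels in tumours 3 and 8.

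Neutrophil genes were the least detected subgroup. S100a8 and S100a9 encode the subunits of calprotectin, the most abundant cytosolic protein of neutrophils. S100a8 read 3.68, 3.62, 3.51, 4.18, 5.59, 3.80, 3.60 and 3.55, and S100a9 read 5.67, 5.48, 5.58, 5.42, 6.26, 5.37, 5.47 and 5.53. Tumour 5 was alone at the top for both, and S100a8 stayed under the background even there. Their Pearson correlation was 0.85 (exact permutation p = 0.112, adjusted p = 0.168), rho was -0.05 (p = 0.935, adjusted p = 0.935), and r was -0.47 without tumours 4 and 5. Tumour 4 was next to the top for S100a8 (4.18) but low for S100a9 (5.42), so the positive r rests on tumour 5. Mmp9, a gelatinase of neutrophil granules that other cells also make, was highest in tumour 5 as well (6.96, and 5.89 to 6.40 elsewhere), and Camp, the cathelicidin peptide gene, was below background in all 8 (4.35 ± 0.24).

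Keratinocyte genes, a list added after the values were seen, were also high in tumour 5 alone. Krt14 was 9.13 there and 4.82 to 5.29 elsewhere, Krt6a 9.05 against 4.18 to 4.33, and Sprr1a 8.89 against 5.02 to 5.97. The mean over the 7 measured genes of the list was 7.80 in tumour 5, and 1 of the 7 was called detected over the 8 tumours. Epidermal cells also make S100a8 and S100a9 when irritated, and their part in the tumour 5 values was not tested. Of other granulocyte genes 2 of 11 measured were detected, and 7 of the 11 were above background in no tumour. The mean level of the 11 was also highest in tumour 5, at 5.37, against 5.02 to 5.29 elsewhere. Prtn3, a granule protease and 1 of those detected, was highest there at 7.31 (6.48 to 7.02 elsewhere), and Cxcr2, the other, was highest in tumour 4 at 6.22. The part of neutrophils in the tumour 5 values was likewise not tested.

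Retnlg, a resistin-like gene of neutrophils, read 5.94 for tumour 3, 5.37 for tumour 6 and 4.09 to 4.84 for the remaining tumours, and passed background in 1 of 8. Csf3r, the G-CSF receptor, was above background in 7 of 8 tumours (5.96 ± 0.23, SD, n = 8; limma, adjusted p = 0.00186) and highest in tumour 3 at 6.30. Neither had its highest level in tumour 5.

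**Figure D5:**
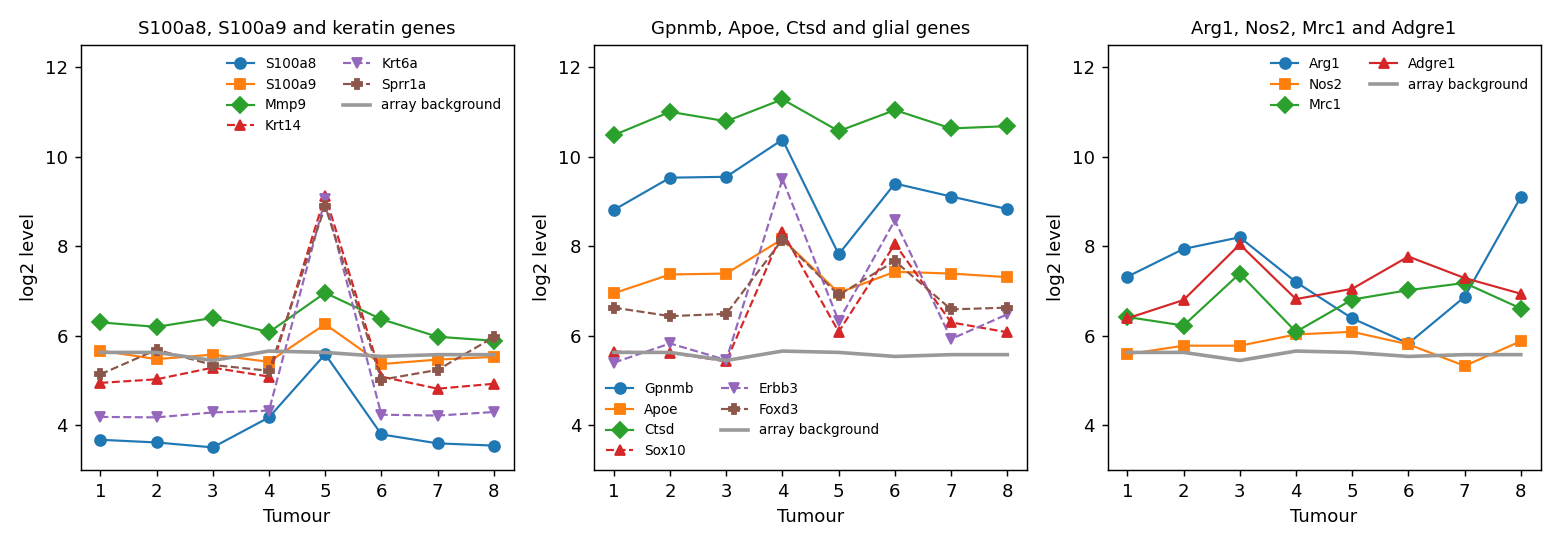
Points are log2 levels per tumour, solid lines for members, dashed lines for genes of other cell types and the grey line for the array background; lines only join points of one gene. S100a8 and S100a9 peak in tumour 5 with Krt14, Krt6a and Sprr1a, Gpnmb and Apoe peak in tumour 4 with Sox10, Erbb3 and Foxd3, and Arg1 is highest in tumour 8 and lowest in tumour 6, where it is close to background.

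Genes of macrophages and monocytes outside the member list were also examined. Of 18 measured, 11 were detected, beside 57.3% of all genes. An upward slope on Csf1r at unadjusted p under 0.05 (limma) was found for 11, beside 4.74% of all genes (median slope 0.79). These were not the same 11, since Itgam, Ccr2, F13a1, Clec12a and Ccl12 had such a slope but were not detected. Among those detected, Folr2 (1.82 ± 0.37), Cybb (1.26 ± 0.30) and Slc11a1 (0.91 ± 0.28) had the largest slopes. Folr2, a folate receptor of resident macrophages, ran from 6.13 to 8.53. Ccr2, the receptor that draws monocytes from blood, was not called detected (4.96 ± 0.57, SD, n = 8). It was above background in tumour 3 alone, at 6.20, and had an upward slope of 1.19 ± 0.32 (limma, unadjusted p = 0.00415). Of other complement genes 3 of 7 measured were detected and 2 had such a slope, C3ar1 (1.504 ± 0.292), the receptor for the C3a fragment, and Cfb (1.09 ± 0.27), which was not detected. Outside all lists, the detected genes most like Csf1r by Pearson correlation over the 8 tumours were Fam151b, Etaa1, Ermp1, Ly86, Ogdh, Pcnp, Zswim6, Layn, Supt6 and Rpa1. Ly86 (MD-1), a partner of a Toll-like receptor homologue on myeloid and B cells, had the largest slope of these 10 (1.75 ± 0.22; limma, adjusted p = 0.12).

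Markers of T cells, B cells, mast cells and basophils were largely at background, while some of dendritic and NK cells were above it. No gene was detected among 6 measured T cell genes (5 above background in no tumour), 4 B cell genes (4 of 4) or 6 mast cell and basophil genes (6 of 6), as called by limma. Their mean levels ran from 4.72 to 5.14, 4.93 to 5.14 and 3.72 to 4.02. Of dendritic cell genes 3 of 6 were detected (mean level 5.83 to 6.10), and of NK cell genes 2 of 5 (5.08 to 5.45), beside 57.3% of all genes. Those detected were Itgax, Zbtb46 and Ccr7, and Nkg7 and Prf1, each above background in all 8 tumours.

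Genes of endothelium, fibroblasts and other tissue cells were read in the same tumours. All 6 endothelial genes were detected, and 3 of them had an upward slope on Csf1r at unadjusted p under 0.05; their mean level ran from 6.71 to 8.05. Pecam1, an endothelial adhesion molecule also found on leukocytes, moved with Csf1r (r = 0.82, exact permutation p = 0.0154, adjusted p = 0.0385; rho = 0.76, p = 0.0368, adjusted p = 0.11). That relation rests on tumours 1 and 3, since r was 0.40 without them, and its adjusted p lay between 0.056 and 0.16 without tumour 1, 3, 4, 6, 7 or 8. Of 7 fibroblast genes 6 were detected and 1 had such a slope (mean level 7.17 to 8.53), and Col1a1 had r = 0.20 with Csf1r (exact permutation p = 0.641, adjusted p = 0.74; rho = 0.24, p = 0.582, adjusted p = 0.714; r = 0.19 without tumours 3 and 4). Sympathetic tumour cell genes were all detected (5 of 5, mean level 10.53 to 11.70), 1 of them with a downward slope. Muscle genes had 4 of 6 detected (5.72 to 8.30) and 0 slopes at unadjusted p under 0.05 (limma). Adipocyte genes had 1 of 5 detected (5.42 to 6.23) and 2 upward slopes, Fabp4 (1.61 ± 0.67) and Cidec (0.53 ± 0.18). The median slope was 1.45 for the muscle list and 0.80 for the endothelial list, both above the 0.64 of the members. With Col1a1 as a second covariate 22 members had an upward slope at unadjusted p under 0.05, where 5.04% of all genes had one, and with Sox10, 20, where 4.97% had one. Csf1r was only loosely related to either covariate (Col1a1 r = 0.20, Sox10 slope on Csf1r 0.54 ± 1.02, SE). No endothelial, muscle, adipocyte or tumour cell gene was a covariate, so these fits do not test the part of those cells.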

How the data were processed

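Total RNA of 8 tumours was isolated with Trizol and, after biotin labelling, hybridised to Affymetrix arrays, per the labels' protocols. The authors deposited log2 values, 1 for each probe set and tumour. RMA and Partek 6.5 are named, without roles, per the submitters' processing notes. No build or annotation version is stated there or in the labels. Of 41345 probe sets, 23521 had 1 gene symbol, 1814 several and 16010 none. Where a gene had several probe sets of its own, the one with the highest mean was used. Every member had 1.

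Levels minus background, and slopes on Csf1r, were fitted over all genes with limma 3.58.1 (trend and robust prior) in R 4.3.3, with Benjamini-Hochberg adjustment over all genes. Pairs of genes were tested by exact permutation; of 16 planned, 1 is not reported here. The fits were tested on simulated data. The members and lists were chosen with earlier results of these data known. The genes named are the members, up to 3 detected genes with the largest slope of a list, and the 10 genes most like Csf1r; other genes were named after their values were seen. The keratinocyte and glial lists, and Sox10 as a covariate, were added after seeing the data. The alternatives were other probe set, array and background settings, other reference genes or covariates, and each tumour left out. Promoter windows came from RefSeq (GRCm38.p6). The number of arrays limits the precision.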

Additional observations from a re-analysis of the deposited data

Results flagged for a closer look

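A tumour stood apart from the other 7 in 4 of the 52 sets of 8 values examined, the 43 genes and 9 subgroup means, by the size of the gap to its nearest neighbour. Chance flags about 1 in 20 such sets. Apoe was at 8.16 in tumour 4 and no higher than 7.43 elsewhere. Fcgr2b was at 8.68 in tumour 3, with 7.94 as the next value. S100a8 was at 5.59 in tumour 5 against 4.18 next, and S100a9 at 6.26 against 5.67.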

How the results depend on the processing

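Of the 43 genes, 35 were above background, with 34 to 36 when a tumour was left out, 38 with the 90th percentile as background, 42 with the median and 21 with the 99th. The share of all genes, 57.3%, belongs to the 35 only. It is not given for the other settings, so their counts cannot be set against all genes. Relative to the median, the mean level turned from below to above for Cd163 (1.24), S100a8 (0.475), Retnlg (1.27), Camp (0.882), Cd14 (1.21) and Tlr4 (1.75), and relative to the 90th percentile for Tlr4 (0.24). Relative to the 99th percentile it was below, not above, for S100a9 (-0.996), Csf3r (-0.629), Mmp9 (-0.321), Csf2rb (-0.82), Spi1 (-0.0357), Ptprc (-0.133), Cd84 (-0.217), Tlr2 (-0.312) and Nos2 (-0.807). Of these, S100a9 and Csf2rb were not called in the main setting either. Laptm5, Mrc1, Fcgr1, Fcgr3, Csf1, Aif1 and Arg1 stayed above it on average but were no longer called (limma, adjusted p from 0.0517 to 0.908). The choice of percentile itself sets these differences. No member passed the slope test under any alternative, and the count at unadjusted p under 0.05 ran from 13 (without tumour 3, 4.50% of all genes) to 21 over the tumours left out and, under the other settings, from 17 (Ptprc as reference, 2.80% of all genes) to 23 (centred arrays, 8.77%), beside 4.74% with 20. Of the 15 relations 6 passed, with 2 (without tumour 1) to 7 when a tumour was left out. Trem2 with Apoe passed with centred arrays (r = 0.72, exact permutation adjusted p = 0.0411) and without tumour 7 (adjusted p = 0.0196), and Csf2rb was called above background without tumour 7 (limma, adjusted p = 0.0315). The highest minus the lowest subgroup mean, left out tumour by tumour, was 0.75 to 1.06 for Fc receptors, 0.78 to 1.01 for C1q, 0.52 to 0.83 for lineage control, 0.84 to 0.85 for lysosome, 0.50 to 0.61 for neutrophil, 0.45 to 0.62 for scavenger receptors, 0.99 to 1.43 for surface genes, 0.78 to 1.15 for sensing genes and 0.63 to 0.91 for all detected members. No paired analysis was possible because the tumours form 1 group.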
